A study of Mus musculus with 2 samples.

Results

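Followed here were 8 genes, grouped as those of abundant nuclear noncoding RNAs, in a map of 5-hydroxymethylcytosine (5hmC). The map was of prospermatogonia, the foetal male germ cells of the mouse, and the abundance of the RNAs was not measured. The genes were Malat1 and Neat1, whose long transcripts stay in the nucleus, Rn7sk, the gene of 7SK RNA, and Rpph1, the gene of the RNase P RNA. The others were Rmrp, the gene of the RNase MRP RNA, and Rprl1, Rprl2 and Rprl3, which the gene table types as RNase P RNAs. These were 8 of the 49603 mouse genes kept for comparison. The 8 genes were chosen by their RNA products and with the fold enrichments of this peak list in view, at least for Rn7sk, Rpph1 and Rmrp, so the folds are given as a description and were not tested. Peaks were taken when they overlapped the gene span or lay within 10 kb of it, and 28 of the 108395 peaks did so.

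The captured library and the library of the same DNA before capture came from wild-type mice, for which the labels name no strain, with 30000 germ cells at E17.5 pooled over several embryos. Both carry the label of batch 1, and there was 1 library of each kind. In 5hmC-Seal, 5hmC is tagged through an attached glucose and the tagged DNA is pulled down, here from 50 ng of fragmented DNA. Results come from the peak list of the captured library alone. The list gives each peak a fold enrichment over a background not given in the sources, and a −log10 q, both the authors' values. It holds no read counts, so the depth and the error of each fold are unknown. There is no replicate, and no comparison here was tested across samples. Peaks on DNA do not show expression, so the cell type label was not checked against marker transcripts.

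As background, 5hmC is made from 5-methylcytosine by TET enzymes and often lies in the bodies of active genes. Malat1 RNA sits in nuclear speckles, where splicing factors gather, and Neat1 RNA builds paraspeckles. The short RNAs act in protein complexes. 7SK RNA holds the elongation kinase P-TEFb inactive, RNase P trims the leader of transfer RNA precursors, and RNase MRP processes ribosomal RNA precursors. RNA polymerase III transcribes the 7SK, RNase P and RNase MRP genes from promoter elements that lie upstream of the transcribed sequence, and RNA polymerase II transcribes Malat1 and Neat1.

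All 8 genes had a peak on the gene, and 12 of the 28 peaks lay on a gene. A peak on the gene was called for 43.2% of all genes, for 7.96% of the 4447 noncoding RNA genes of at most 1 kb and for 47.9% of the 6122 long noncoding RNA (lncRNA) genes of 5 to 25 kb. With 10 kb on either side the shares were 69.9% of all genes and 56.0% of the short noncoding RNA genes. Since the genes were chosen with these peaks known, the count of 8 of 8 is not set against those shares as a result. The highest fold on each gene had a median of 10.2, and the median over all peaks was 3.35. Among genes with a peak, the median highest fold was 3.39 for short noncoding RNA genes. It was 3.4 for lncRNA genes of 5 to 25 kb. As the folds were in view when the genes were chosen, the 10.2 is likewise not set against these medians as a result. In 4 genes, Rn7sk, Rpph1, Rprl3 and Rmrp, the highest fold was over 10, a level that 171 peaks of the whole list passed. Malat1, Rprl1 and Rprl2 lay between 6.72 and 7.24. Neat1 was the lowest, at 3.69, below the 5.43 under which 90% of all peaks fell.

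**Figure D1:**
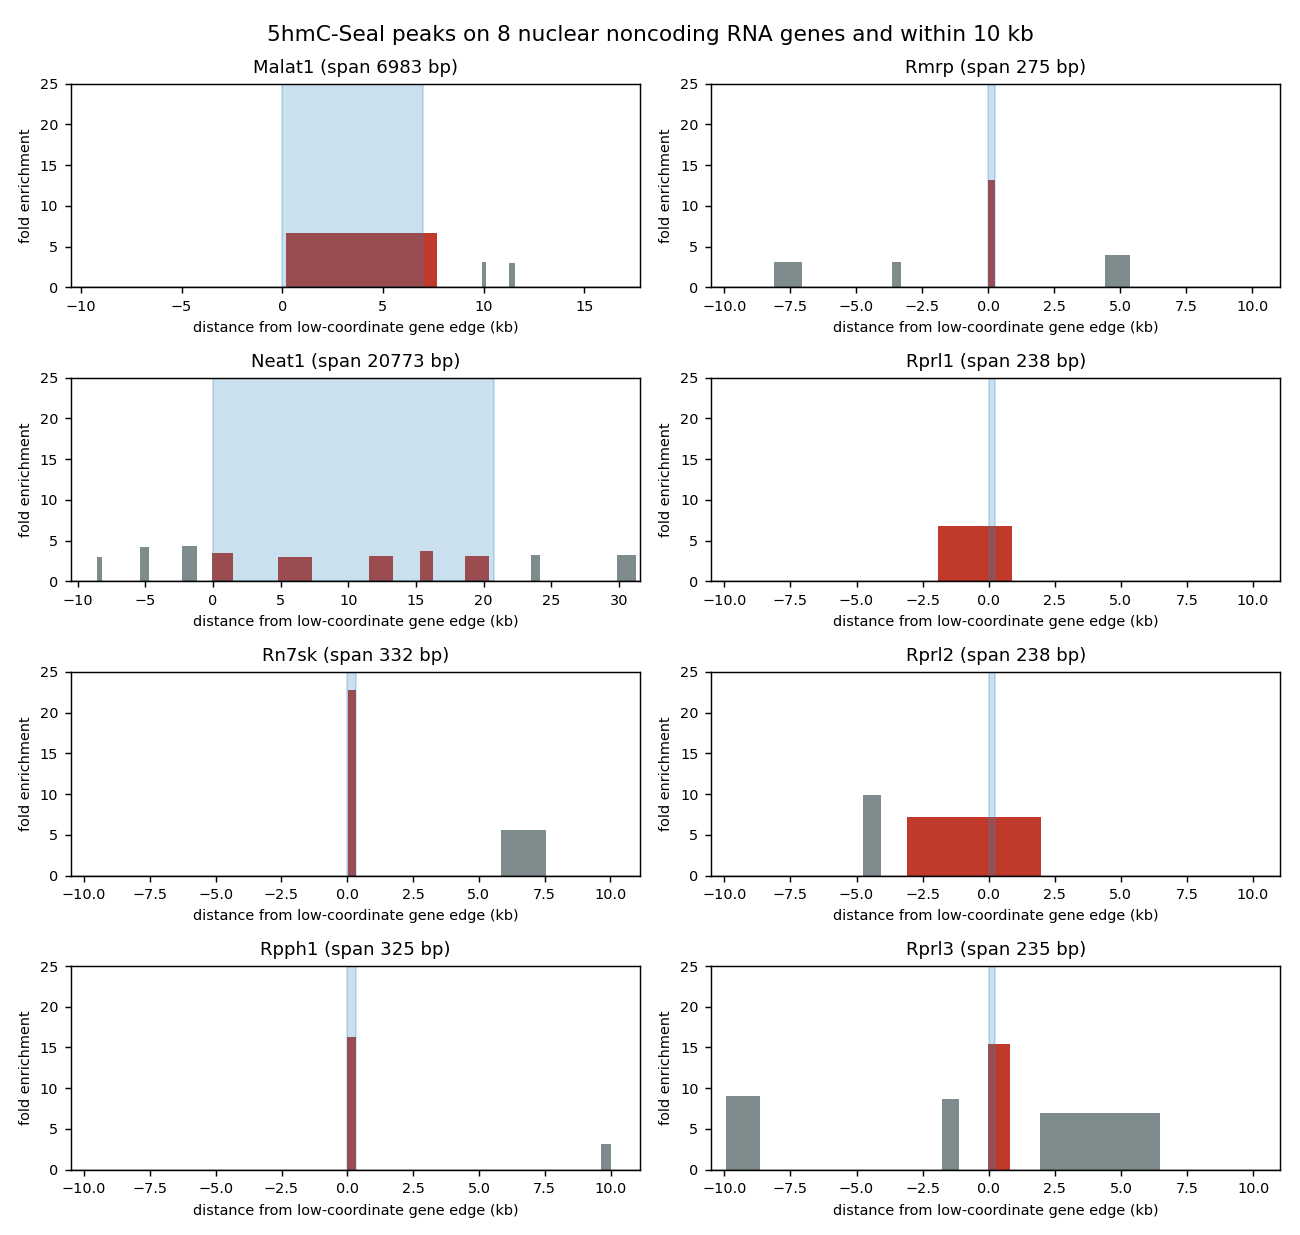
Peaks at the 8 genes and within 10 kb of them, with distance from the low-coordinate edge of the gene in kb on the horizontal axis and the authors' fold enrichment on the vertical axis. The blue band is the gene span, red bars are peaks on the gene and grey bars are peaks in the flanks. Rn7sk, Rpph1 and Rmrp carry narrow peaks at folds of 22.7, 16.3 and 13.1, while 5 low peaks lie on Neat1.

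Malat1 was covered almost from end to end by a single broad peak. The gene (Entrez 72289, NR_002847.3) spans chr19:5795690-5802672, and the peak chr19:5795859-5803372, both in mm10 coordinates. The peak was 7514 bp wide with a fold of 6.72 and a −log10 q of 10.3, and it covered 97.6% of the span. Among lncRNA genes of 5 to 25 kb, 6 of 6122 had at least that share covered, Malat1 included. Malat1 is on the minus strand in the promoter table, so its start is the high-coordinate edge. There the peak ran 700 bp past the gene, and at the other edge it left 169 bp uncovered. Mascrna, the gene of a transfer-RNA-like RNA cut from the end of the Malat1 transcript, lay wholly under the peak. Both flank peaks were beyond the start, at 2.92 kb with a fold of 3.15 and at 4.27 kb with a fold of 2.93. No other peak within 100 kb had a higher fold than the one on the gene: there were 34, with a median fold of 3.21 and a highest fold of 4.75.

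The peak covered all 300 bases of the Malat1 promoter entry in RefSeq (GRCm38.p6, chr19:5802623-5802922, minus strand), which runs from 250 bases before the annotated start to 50 after it. It is shown because it is the promoter of the set that lay entirely under a peak, and capitals mark CpG sites, where most 5hmC is found. It holds 10 CpG sites, a number that 43.5% of the 32851 promoter entries reach, against a median of 7.
Malat1: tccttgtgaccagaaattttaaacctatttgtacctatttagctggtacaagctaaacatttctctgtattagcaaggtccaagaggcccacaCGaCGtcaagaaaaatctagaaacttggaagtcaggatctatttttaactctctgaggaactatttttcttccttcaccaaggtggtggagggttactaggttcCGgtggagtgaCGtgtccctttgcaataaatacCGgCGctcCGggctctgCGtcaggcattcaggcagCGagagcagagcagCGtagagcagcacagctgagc

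Neat1 lies 22.0 kb further along chromosome 19 and was marked differently, by several weak peaks. The gene (Entrez 66961) spans chr19:5824708-5845480, 20.8 kb, and had 5 peaks on it with folds of 3.49, 2.99, 3.09, 3.69 and 3.06 from low to high coordinate. Their −log10 q lay between 1.32 and 2.30, so these are weak calls. Together they covered 40.8% of the span, and 78 of the 6122 lncRNA genes of 5 to 25 kb had as much or more covered. On 32 of those genes, Neat1 included, there were 5 or more peaks. The peak at the low edge began 60 bp before the gene, and the last one ended 404 bp short of the high edge. The flank peaks had folds within and above the range of those on the gene. On the low side 3 peaks had folds of 3.01, 4.28 and 4.31, and on the high side 2 had 3.20 and 3.21. The farthest of these reached Frmd8, the nearest protein-coding gene on that side, 5.49 kb from Neat1, and covered 5.93% of it. Between both lncRNA genes there were 5 peaks, with folds from 2.93 to 4.31.

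Rn7sk carried the highest fold of the whole list. The gene (Entrez 19817, NR_030687.1) spans 332 bp at chr9:78175302-78175633. The peak began 26 bp inside the low edge and ended at the last base of the gene. It was 306 bp wide, with a fold of 22.7 and a −log10 q of 306, and covered 92.2% of the span. By −log10 q it ranked 8 among all peaks. Its single flank peak stood 5.53 kb away on the high side with a fold of 5.53, and 13 peaks within 100 kb had a median fold of 3.17. Cilk1, 3.19 kb away on the low side, was not overlapped by the peaks on Rn7sk or within 10 kb of it. Gsta4, 16.3 kb away on the high side, lay beyond that window. The nearest peak outside the window stood 18.8 kb from Rn7sk with a fold of 2.76. The side of this peak was not recorded here, and at that distance lies Cilk1 on the low side and Gsta4 on the high side.

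Rpph1 showed the same fit between gene and peak. The gene (Entrez 85029, NR_002142.2) spans 325 bp at chr14:50807447-50807771, and the peak left 1 bp uncovered at each edge. The fold was 16.3, rank 5 of all peaks, and the −log10 q was 202. One flank peak, of fold 3.18, lay 9.29 kb away inside Parp2, a DNA repair gene that begins 125 bp past Rpph1. Ccnb1ip1, a meiotic crossover gene 11.7 kb away on the other side, lay beyond the 10 kb window. Rmrp (Entrez 19782, NR_001460.1) spans 275 bp at chr4:43492785-43493059. Its peak left 3 bp uncovered at the low edge and ended at the last base of the gene, with a fold of 13.1, rank 16, and a −log10 q of 64.4. The 3 flank peaks of Rmrp were weak, with folds of 3.12 at 7.07 kb and 3.12 at 3.31 kb on the low side, and 3.94 at 4.15 kb on the high side. That on the high side overlapped Arhgef39. None of these peaks overlapped Ccdc107, which begins 280 bp past Rmrp, or Sit1, 9.07 kb away on the low side.

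The RefSeq promoter entries of Parp2 and Ccdc107 hold the sequence just beyond Rpph1 and Rmrp, and were set against the peaks. Parp2 and Rpph1 are known to be transcribed away from each other from a shared promoter. In the Parp2 entry (GRCm38.p6, chr14:50807666-50807965, plus strand) the opening 106 bases belong to Rpph1 and 105 bases were under the peak, so the peak ended at the gene and left the shared upstream sequence out. The Ccdc107 entry (chr4:43493115-43493414, plus strand) starts 55 bp past Rmrp, and 0 of its 300 bases were under a peak. Capitals mark matches, on either strand, of TATAAA (the TATA box), ATTTGCAT (the octamer bound by POU2F1) and CACCNTNA (a loose core of the proximal sequence element of small nuclear RNA promoters). A binding motif of ZNF143, searched as a core of 10 letters, had no match in either entry or in that of Malat1, and Malat1 had no match of any of the 4 motifs.
Parp2: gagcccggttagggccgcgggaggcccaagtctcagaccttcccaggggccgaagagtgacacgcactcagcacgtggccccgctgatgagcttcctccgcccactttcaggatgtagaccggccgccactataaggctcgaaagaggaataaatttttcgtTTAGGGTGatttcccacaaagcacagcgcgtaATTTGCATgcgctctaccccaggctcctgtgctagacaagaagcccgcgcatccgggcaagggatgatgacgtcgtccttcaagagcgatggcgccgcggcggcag
Ccdc107: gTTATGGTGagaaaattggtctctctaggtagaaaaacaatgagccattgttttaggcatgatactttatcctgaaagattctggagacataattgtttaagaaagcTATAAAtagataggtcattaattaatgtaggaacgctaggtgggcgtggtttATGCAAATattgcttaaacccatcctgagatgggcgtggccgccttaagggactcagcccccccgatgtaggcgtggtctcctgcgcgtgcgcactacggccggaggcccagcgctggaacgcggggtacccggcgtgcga

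Both entries hold the octamer, which 1.74% of the 32851 promoter entries contain. It stands at bases 195 to 202 of the Parp2 entry as printed and at bases 160 to 167 of the Ccdc107 entry on the opposite strand. The loose core was matched at bases 163 to 170 of Parp2 and 2 to 9 of Ccdc107, both on the opposite strand, and is found in 12.2% of all entries. TATAAA was matched in Ccdc107 at bases 108 to 113 as printed, the strand of Ccdc107, and is found in 13.6% of entries. The 55 bp between Rmrp and the Ccdc107 entry were not searched. The ZNF143 core is found in 1.88% of entries. The Parp2 entry holds 25 CpG sites, a number reached by 18.4% of entries, and the Ccdc107 entry 17, reached by 31.4%. Of the 25 CpG sites in the Parp2 entry, 8 lie in the Rpph1 part. These matches describe letters in the reference sequence only. Of the 8 genes, the promoter table holds an entry for Malat1.

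**Figure D2:**
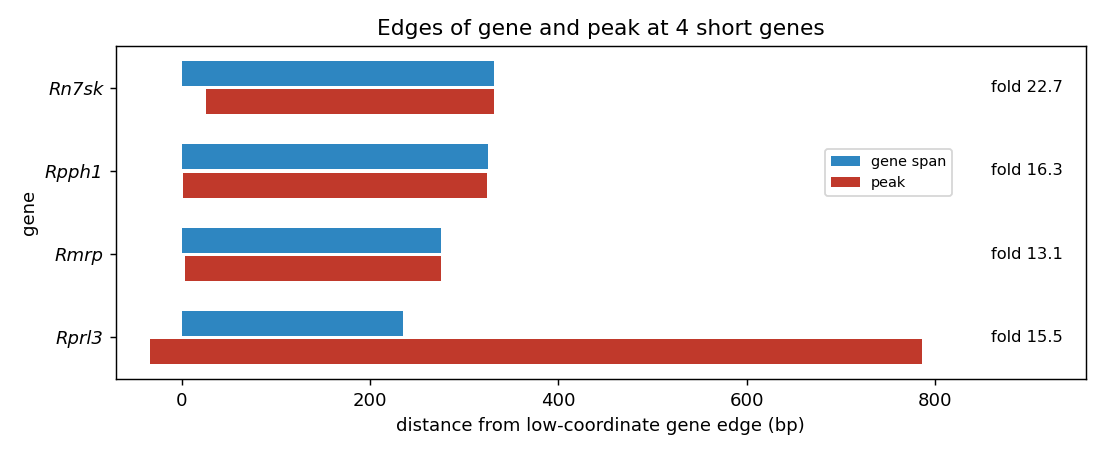
Gene span (blue) and peak (red) of the 4 short genes with a fold over 10, with distance from the low-coordinate gene edge in bp on the horizontal axis and the fold printed at the right. At Rn7sk, Rpph1 and Rmrp the peak edges lie within 26 bp of the gene edges, whereas the peak at Rprl3 runs 551 bp past the high edge.

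So close a fit of both edges was uncommon among short genes with a peak. Of 864 genes of 200 to 1000 bp with a peak on the gene, 33 (3.82%) had both peak edges within 50 bp of the gene edges, and 3 of the 33 were Rn7sk, Rpph1 and Rmrp. This measure was chosen after the peaks of those 3 genes were seen. The peak list does not show which molecules gave the reads, and whether sequence derived from RNA had a part in the folds of 22.7, 16.3 and 13.1 was not tested. The other 30 had folds from 2.87 to 15.4, with a median of 3.63. Rpph1 and Rmrp were the 2 genes of the 33 with both edges within 5 bp. By fold, Rn7sk ranked 1, Rpph1 3 and Rmrp 4 among the 33931 peaks of at most 400 bp. Those peaks had a median fold of 3.30, and 11 of them had a fold over 10. Over peaks of every width the 3 genes ranked 1, 5 and 16. The genes and the 400 bp limit were chosen with these data known, so the ranks are a description only.

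**Figure D3:**
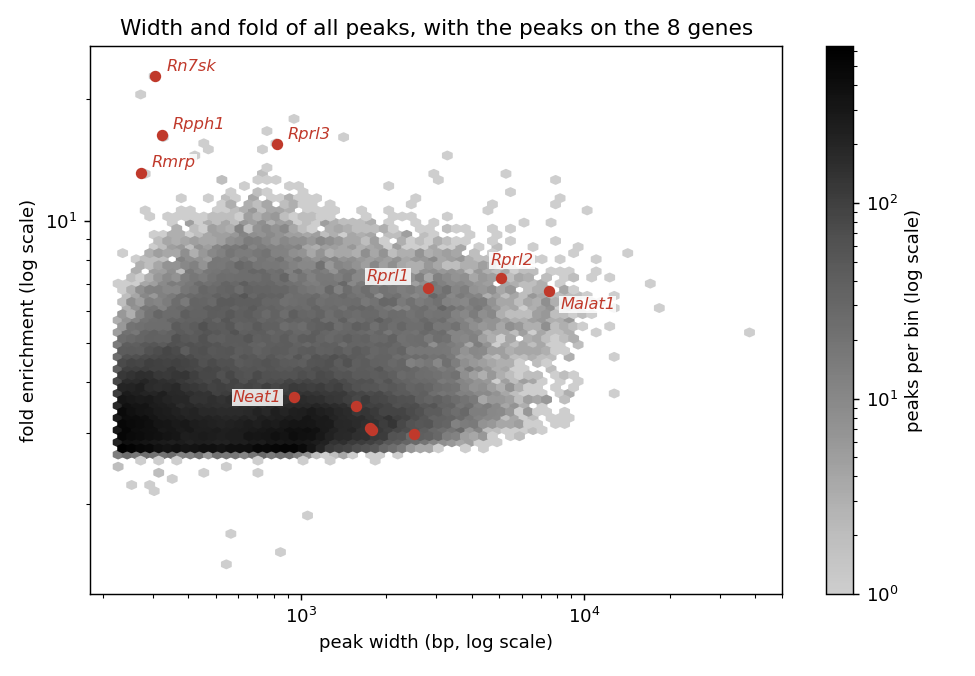
Width of every peak in bp (horizontal, log scale) against its fold enrichment (vertical, log scale), with grey shade for the number of peaks per bin and red points for the 12 peaks on the 8 genes. The label of Neat1 stands at its highest peak, and its other 4 points lie in the dense low part. Rn7sk, Rpph1 and Rmrp rank 1, 3 and 4 by fold among peaks of at most 400 bp, and Malat1, Rprl1 and Rprl2 lie at the wide end.

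The RNase P RNA-like genes lay inside wider peaks that ran past the gene, in surroundings with strong flank peaks at Rprl2 and Rprl3. Rprl1 (Entrez 19783) spans 238 bp at chr6:69326937-69327174, within the Igk immunoglobulin locus. Its peak was 2797 bp wide with a fold of 6.83, began 1914 bp before the gene and ended 645 bp past it, so that 8.51% of the peak lay on the gene. No flank peak was found within 10 kb of Rprl1, and 4 peaks lay within 100 kb. On the high side the nearest protein-coding gene was Rpia, 1440 kb away. Rprl2 (Entrez 19784) spans 238 bp at chr3:22251370-22251607. Its peak was 5081 bp wide with a fold of 7.24, began 3108 bp before the gene and ended 1735 bp past it, and 4.68% of it lay on the gene. A flank peak 4.08 kb away on the low side had a higher fold, 9.91. Tbl1xr1 lay 34.8 kb away on the low side and Naaladl2 1550 kb away on the high side.

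Rprl3 (Entrez 19785) spans 235 bp at chr8:3803125-3803359, between Cd209a at 54.1 kb and Cd209e at 44.6 kb. Its peak was 820 bp wide with a fold of 15.5, rank 7 of all peaks, and a −log10 q of 73.9. It began 34 bp before the gene and ended 551 bp past it, and 28.7% of it lay on the gene. The 3 flank peaks had folds of 9.06 at 8.65 kb and 8.68 at 1.11 kb on the low side, and 6.98 at 1.71 kb on the high side. Within 100 kb the 15 other peaks had a median fold of 5.78, beside 3.55 around Rpph1 and 3.38 around Rmrp. The 3 Rprl genes and Rpph1 carry the same gene type, and the sources used here do not say how multiply mapping reads were treated. The part of such reads in these folds was not tested.

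Over all 8 genes the 16 flank peaks had folds from 2.93 to 9.91 with a median of 3.57, and 9 of them had a −log10 q under 3. The 3 with a fold over 8 were those of Rprl2 and Rprl3 on the low side. Just inside the 10 kb limit stood the peaks 9.29 kb from Rpph1 (fold 3.18) and 9.07 kb from Neat1 (fold 3.21). Just outside it stood peaks 11.5 kb from Rprl2 (fold 3.26) and 13.4 kb from Malat1 (fold 3.01).

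In the lists of related noncoding RNA genes compared here, the highest fold was 5.98. Of 7 other short RNA polymerase III genes, Rnu6, of U6 RNA, had a peak, with a fold of 4.03, beside the 7.96% of all short noncoding RNA genes. The 7SL RNA genes Rn7s1 and Rn7s2 had none on the gene or within 1 kb, nor had the Y RNA genes Rny1 and Rny3, Bc1 or Vaultrc5. Another listed symbol, Rn7s6, was not found in the gene table and was not assessed. Of 9 spliceosomal and U7 snRNA genes 0 had a peak on the gene. The narrowest peak of the list is 226 bp, wider than most of these genes. Among 28 other lncRNA genes 9 had a peak on the gene (32.1%, beside 47.9% of lncRNA genes of 5 to 25 kb). The listed genes span from 0.785 kb (Snhg8) to 222 kb (Pvt1), so the 47.9% is not a share for like spans. Xist, Tsix, Jpx, Ftx and Firre, all on the X chromosome, were among those without a peak. The share of all genes on that chromosome with a peak was not counted, so this is not read as particular to these genes. The 9 genes held 38 peaks, 11 of them on Pvt1. Their median highest fold was 4.29, led by Tug1 at 5.98 and Kcnq1ot1, the imprinted antisense transcript, at 5.93. The 5 short genes outside the set, not protein-coding, with the highest folds in this 1 library were the pseudogenes Gm10073 (15.4), Gm15772 (14.6) and Gm11478 (12.4), and the small nucleolar RNA genes Snora62 and Gm26448, which shared a peak of fold 12.2. The shared peak was 1984 bp wide, ran past Snora62 on both sides and covered 4.93% of Gm26448. At Gm10073 the peak began 36 bp inside the gene and ended 29 bp past it. At Gm15772 the peak left 63 bp uncovered at the low edge and 65 bp at the high edge.

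Genes of the proteins that act with these RNAs, or at their promoters, had highest folds from 2.81 to 8.54. Of the 8 genes of the 7SK particle 7 had a peak, with a median highest fold of 4.40. A peak on the gene was called for 61.6% of all 21779 protein-coding genes, with a median highest fold of 3.77. That share was 31.1% for spans under 10 kb, 72.7% from 10 to 50 kb and 90.1% over 50 kb. Larp7, which binds and stabilises 7SK RNA, had the highest fold at 5.07, followed by Sart3 at 4.82. Cdk9, the kinase of P-TEFb, had 4.47, and Hexim1, its inhibitor, had no peak. Of 11 genes of RNase P and RNase MRP proteins, a list with a median span of 6.44 kb, 5 had a peak, led by Pop1, of a subunit that both enzymes share, at 4.17 and by Rpp14 at 3.42. Among 12 paraspeckle genes 10 had a peak, led by Sfpq at 4.52 and Cpsf6 at 4.27. Nono and Hnrnph3 had none on the gene. Of 12 nuclear speckle genes 10 had a peak, led by the scaffold gene Srrm2 at 8.54 and Rnps1 at 6.92. Srsf1 and Srsf2 had none. Of 10 genes of factors for upstream RNA polymerase III promoters 8 had a peak, led by Pou2f1 at 4.83 and Snapc1 at 4.45, with none on Tbp or Snapc5. These shares were not tested, and the lists are short.

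**Figure D4:**
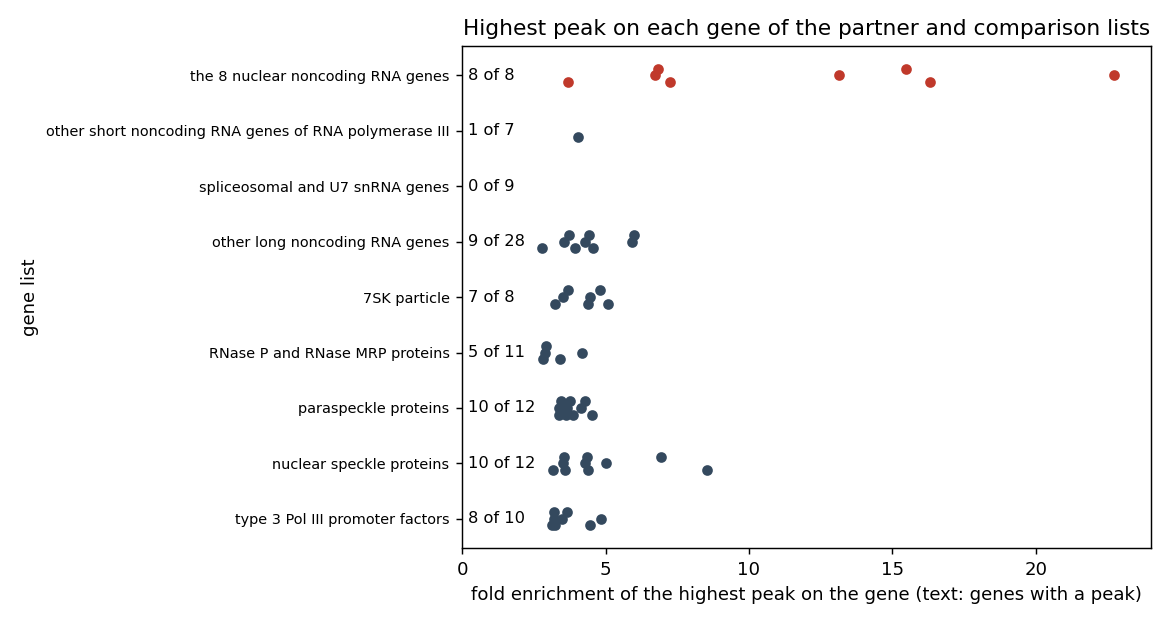
Fold enrichment of the highest peak on each gene (horizontal axis), by gene list (vertical axis), with 1 point per gene that had a peak and the number of such genes printed at the left. The 8 nuclear noncoding RNA genes reach from 3.69 to 22.7, and the highest point of any other list is Srrm2 at 8.54.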

How the data were processed

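Per the submitters' processing notes, MACS2 2.1.0, Bowtie2 2.5.0, Trim Galore, deepTools 3.5.1, SAMtools 1.16.1 and bedtools 2.27.1 were used with build mm10. Not given in the sources used here are their roles, the caller's settings, the control and the treatment of multiply mapping reads. The authors' deposited list holds broad peaks of the captured library, each with a fold enrichment (a ratio). Per peak, the deposited −log10 q and −log10 p are the caller's. The deposited score follows the −log10 q and was not used. No counts are given, so depth is unknown. The lowest −log10 q was 1.01.

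Gene spans came from the RefSeq table of GRCm38.p6 (the build of mm10) and promoter sequences from RefSeq. Of 49997 genes, 49603 were kept: those on the 19 autosomes, X and Y, without any placed in the opening 3 Mb of a chromosome other than Y. The table gives no strand. A peak was on a gene when they shared at least 1 bp, in 1-based coordinates. Overlap code was checked on simulated intervals. Python 3.11.15, pandas 2.3.3 and numpy 2.4.6 were used. The members, lists and settings were chosen with earlier results of these data known. Named genes were the 8 members, their nearest protein-coding neighbours, genes under their peaks, the 5 short non-coding genes with the highest folds, and the 2 highest of each list. Some neighbouring genes are not reported here. Of the list genes, 3 symbols were not found in the table. List genes without a peak, Cdk9, Pvt1 and the genes of the closing observations were named after their values were seen.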

Additional observations from a re-analysis of the deposited data

How the results depend on the processing

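No paired analysis was possible because 1 library of the captured kind was used and no test was run; for the same reason no replicate could be left out. The 28 peaks became 14 at a −log10 q of at least 3 and 12 at 5, 15 with a window of 2 kb and 82 with 50 kb. Neat1 lost its peaks on the gene at both thresholds, and 7 genes kept one. With peak midpoints, Rprl1, Rprl2 and Rprl3 had none on the gene and 5 genes did. The median highest fold was 10.2 as reported, 13.1 at both thresholds and with midpoints, and 11.5 with peaks within 1 kb merged. Of the partner and comparison lists together, 50 genes had a peak as reported, 21 at a −log10 q of at least 3 and 4 at 5. The share of all genes with a peak at these thresholds was not counted. Since the 8 genes were chosen with their folds in view, their counts are not compared with those of the lists. Counts within 10 kb stayed at 7 or 8 genes under every setting tried. In the last 100 bases of the 3 promoter entries there were 0 motif matches, against 5 in the whole entries. Alternatives added after the data were seen moved the 33 genes with matching edges to 6 at a tolerance of 25 bp, 73 at 100 bp and 10 at a −log10 q of at least 5.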

Other observations

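Pseudogenes made up 84.8% of the genes with both peak edges within 50 bp of their own, near their share of 86.6% among all genes of 200 to 1000 bp with a peak. Of the 30 genes with matching edges apart from Rn7sk, Rpph1 and Rmrp, 28 were pseudogenes, and 5 of those carry ribosomal protein symbols: Rps26-ps1 (fold 5.80), Rps19-ps5 (4.97), Rpl28-ps4 (3.96), Rps6-ps2 (3.25) and Rpl36-ps12 (2.87). How many of all 748 pseudogenes of this span with a peak carry such symbols was not counted, so the 5 are a list only. As a share of the genes of 200 to 1000 bp with a peak, matching edges were found at 4 of 60 noncoding RNA genes (6.67%), 28 of 748 pseudogenes (3.74%) and 1 of 56 protein-coding genes (1.79%), the histone gene H4c4 with a fold of 3.60. These 4 noncoding RNA genes included Rn7sk, Rpph1 and Rmrp, whose peaks led to the choice of this measure. Their share is therefore not set against those of the other classes. The fourth noncoding RNA gene was Gm22009, typed as a guide RNA, with a fold of 2.99. At a −log10 q of 5 or more, 7 of the 30 remained in the list. These genes were singled out after their values were seen, and the difference between the classes was not tested.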
